A study of Homo sapiens with 16 samples.

Results

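The 42 genes described here run or restrain the division cycle of the cell. They were taken by name, with earlier results of these data known, and all 42 were found among the 57736 genes of the count table and were among the 24249 genes that could be tested. By role they are 5 cyclins and kinases of G1, 6 genes of the passage from G1 into S phase, 12 genes of DNA replication, 16 genes of G2 and mitosis, and 3 inhibitors of cyclin-dependent kinases.

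The RNA came from H9 cells, an established line of human embryonic stem cells, at 4 stages of differentiation toward cortical neurons (D0, D12, D30 and D70). Every group was the same line without any genetic change. D0 cells were undifferentiated and grown without feeders. Cells of the later stages had been placed in neural induction medium with LDN193189, an inhibitor of BMP type 1 receptors, and SB431542, an inhibitor of activin receptors, up to D12, and were then kept in medium with the N2 and B27 supplements. At each stage, 2 control libraries from cells given the solvent DMSO were set beside 2 libraries from cells given 40 µM Thiamet-G (TMG). TMG blocks O-GlcNAcase, the enzyme that removes the sugar O-GlcNAc from proteins, and it was present from the undifferentiated state onward. The question was which genes change between stages, and which change when O-GlcNAc is kept high. The arm of each library was taken from its title, which the sample name in the count table matched for all 16 libraries. A separate treatment tag reads control for every replicate 1 and TMG for every replicate 2, and so goes against the title for 8 libraries. Library totals lay between 10334908 and 19836878 counts.

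The cell cycle is driven by kinases that work only when bound to a cyclin. In G1, cyclin D with CDK4 or CDK6, and then cyclin E with CDK2, phosphorylate the retinoblastoma protein, which releases E2F factors to switch on the genes of DNA synthesis. Later, MYBL2 and FOXM1 switch on the genes of G2 and mitosis, while CDKN1A, CDKN1B and CDKN2A hold the kinases back, and neural progenitors leave this cycle when they become neurons.

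The cells carried the markers of their stage, with exceptions. POU5F1, a factor of the undifferentiated state, had 824 and 893 CPM (normalised counts scaled to a common library size) in the D0 controls and less than 1 CPM in all later control libraries. On D30 it had 9.13 and 5.49 CPM in the TMG libraries against 0.094 and 0.401 CPM in the controls. PAX6, a factor of neural progenitors, was between 246 and 587 CPM in 11 of the 12 libraries after D0 and at 2.5 CPM in TMG replicate 2 of D70, where the neuronal gene DCX had 14.2 CPM. SOX1, a progenitor factor, was at or near 0 in every library, with at most 0.376 CPM. A list of 9 mesenchymal and stromal markers summed to between 4565 and 5831 CPM in 3 libraries of D30 and to 30317 CPM in TMG replicate 2. On D70 this list summed to 7727 and 4073 CPM in replicate 1 of the control and TMG arms and to 45745 and 59860 CPM in replicate 2. A list of 7 pigment epithelium and choroid plexus markers summed to 10346 CPM in control replicate 1 of D70 against 49.6 to 3266 CPM in its other libraries. TTR alone gave 9812 CPM in control replicate 1 and 2913 CPM in TMG replicate 1. MITF, RPE65, CLIC6 and AQP1 were also highest in control replicate 1. PMEL and TYR were highest in control replicate 2 (598 and 98.7 CPM, against 107 and 11.4 CPM in control replicate 1). All 9 stromal markers were detected in TMG replicate 2 of D30 and replicate 2 of both D70 arms. Most of their sums there came from COL1A1, COL1A2 and COL3A1. On D70, PDGFRB was lower in replicate 2 than in replicate 1 (225 against 259 CPM in control, 149 against 164 CPM in TMG). PDGFRA was lower in TMG (152 against 230 CPM) and higher in control (170 against 134 CPM). The other markers were higher in replicate 2 in both arms. These 3 libraries are called high in stromal markers by their sums. The main counts and medians that rest on these libraries are therefore given with and without them. Their part in the results was not tested. In bulk RNA, fewer dividing cells and less RNA of a gene per cell cannot be told apart.

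The regions upstream of the genes are shown because the replication genes and the G2/M genes moved as groups. In the 250 bases before the start, letters of 3 kinds were searched on both strands. The CHR, an element known from mitotic genes, was read as the letters TTTGAA and as the letters TTCGAA, and the CCAAT box by its name. The E2F element was read in 4 forms, first as TTCCCGC, in the next form as TTGGCGC, in another form as TTCGCGC and in the last form as TTGCCGC. RefSeq promoter entries of GRCh38.p14 were matched for 34 of the 42 genes, with 46 entries. CCND1, CCND2, CCNE2, CDK2, MCM4, MCM5, AURKA and FOXM1 were not matched. CHR letters were in 9 of 16 entries of G2/M genes (56.2%) and in 1 of 16 entries of replication genes (6.25%), against 14.3% of all 35116 entries. E2F letters were in 8 of 16 entries of replication genes (50%), in 3 of 4 of G1/S genes (75%) and in 3 of 16 of G2/M genes (18.8%), against 10.9% of all. CCAAT was in 75% of replication and 87.5% of G2/M entries, against 32% of all. The entries of the G1 cyclins and kinases and of the inhibitors held neither CHR nor E2F letters. Such a match is a description of the sequence and does not show that a factor binds.

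The promoters printed are 3 with CHR letters and 2 of replication genes with E2F letters, from the genes that passed the test in the most comparisons. Capitals mark every match to the 3 motifs, and adjoining capitals can be overlapping motifs (2 overlapping pairs in MCM6, 1 in MKI67). MKI67 encodes the Ki-67 protein of dividing cells, BUB1B a kinase of the spindle checkpoint, CDT1 a factor that loads the replicative helicase, and MCM3 and MCM6 subunits of that helicase. MCM6 lies on the minus strand (chr2:135876444-135876693), as do MKI67 (chr10:128126424-128126673) and MCM3 (chr6:52284743-52284992), while BUB1B (chr15:40160819-40161068) and CDT1 (chr16:88803539-88803788) lie on the plus strand. The CHR letters lie 24 bases from the start in MKI67, 18 in BUB1B and 241 in MCM6, and the nearest E2F letters lie 17 bases from the start in CDT1 and in MCM3.
MCM6: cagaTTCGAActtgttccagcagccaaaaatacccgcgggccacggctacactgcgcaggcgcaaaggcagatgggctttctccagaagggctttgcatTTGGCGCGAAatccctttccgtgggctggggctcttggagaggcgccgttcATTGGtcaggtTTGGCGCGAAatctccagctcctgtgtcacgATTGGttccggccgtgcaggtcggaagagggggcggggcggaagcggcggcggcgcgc
MKI67: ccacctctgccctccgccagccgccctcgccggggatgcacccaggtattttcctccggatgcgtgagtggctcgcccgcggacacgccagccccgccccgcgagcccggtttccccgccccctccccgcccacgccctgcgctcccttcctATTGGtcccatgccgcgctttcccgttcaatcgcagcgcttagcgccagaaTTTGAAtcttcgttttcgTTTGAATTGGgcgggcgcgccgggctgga
BUB1B: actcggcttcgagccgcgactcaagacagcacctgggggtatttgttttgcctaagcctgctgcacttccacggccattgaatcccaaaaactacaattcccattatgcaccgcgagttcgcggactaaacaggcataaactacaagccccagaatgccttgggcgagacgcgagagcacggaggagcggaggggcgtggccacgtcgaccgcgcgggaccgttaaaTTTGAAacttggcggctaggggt
CDT1: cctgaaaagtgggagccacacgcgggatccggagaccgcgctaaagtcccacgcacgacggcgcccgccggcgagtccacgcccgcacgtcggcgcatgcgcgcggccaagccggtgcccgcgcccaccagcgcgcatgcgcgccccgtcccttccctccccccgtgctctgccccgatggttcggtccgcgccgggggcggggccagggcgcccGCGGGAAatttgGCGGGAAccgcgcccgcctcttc
MCM3: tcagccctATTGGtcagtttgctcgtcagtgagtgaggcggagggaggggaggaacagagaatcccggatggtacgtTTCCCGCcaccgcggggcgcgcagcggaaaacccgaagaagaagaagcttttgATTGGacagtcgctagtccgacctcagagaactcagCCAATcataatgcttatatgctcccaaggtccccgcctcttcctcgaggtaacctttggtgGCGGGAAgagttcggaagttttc

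From D0 to D12 in control cells, the means of all 16 G2/M genes and of 11 of the 12 replication genes were lower, and more replication than G2/M genes passed the test. Of the 42 genes, 13 fell and 1 rose by edgeR's quasi-likelihood test, with p-values adjusted to a false discovery rate of 5%, where 9.71% of all genes tested fell and 6.97% rose. These were 8 of 12 replication genes, 3 of 16 G2/M genes, 1 of 6 G1/S genes and 1 of 5 G1 genes that fell, and 1 of 3 inhibitors that rose. In mean, 36 of the 42 were lower, where 49.5% of all genes were, and their median log2 fold change was -1.21 against 0.003 for all genes. Whether the roles differ from each other was not tested.

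**Figure D1:**
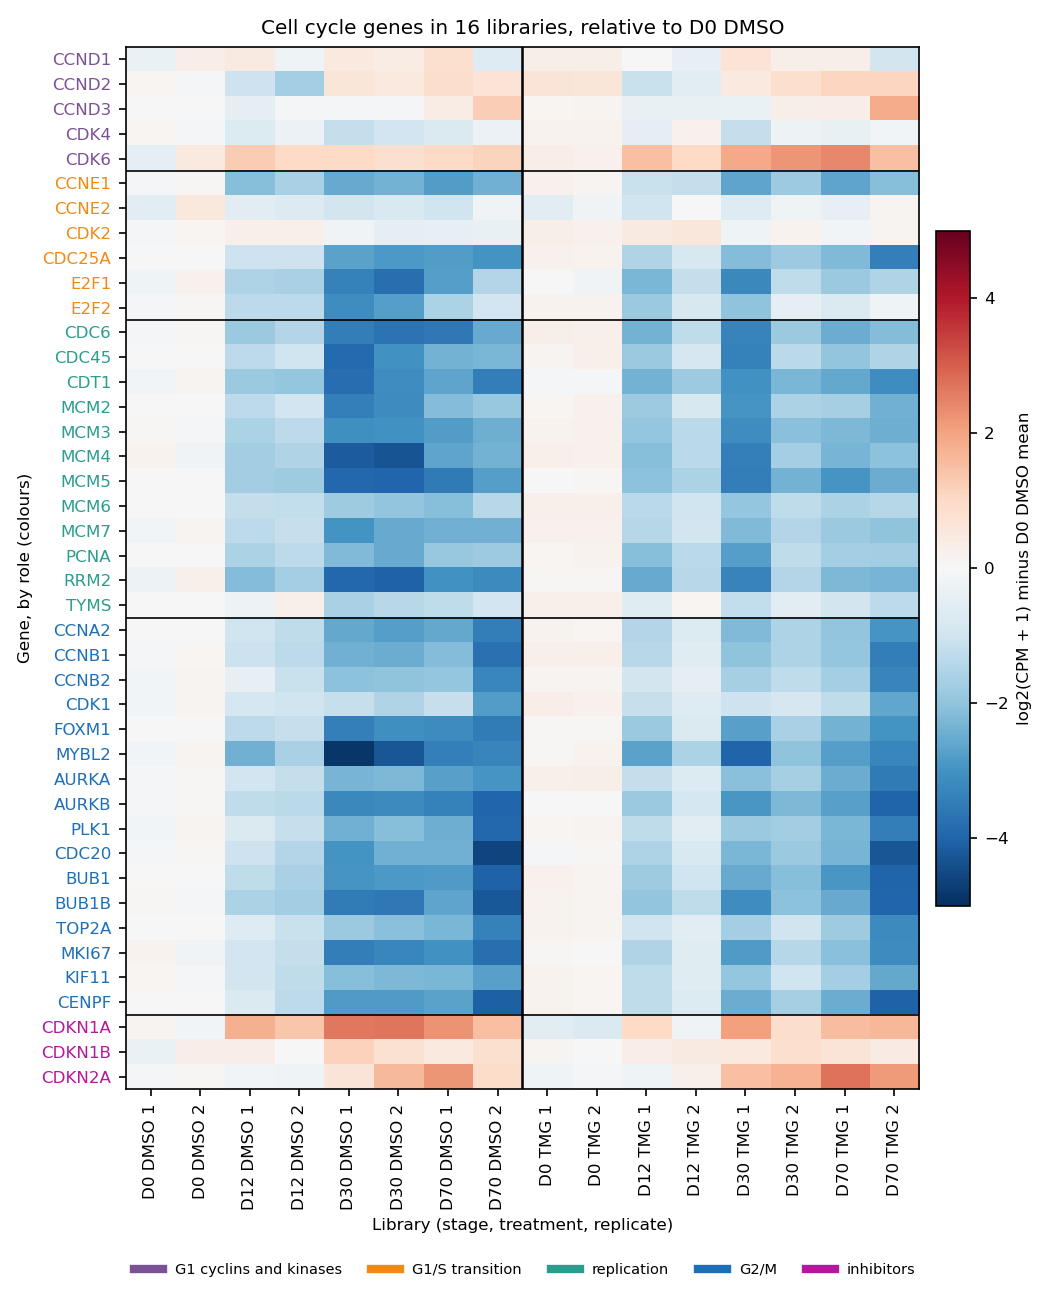
Level of the 42 genes in each of the 16 libraries, as the difference of log2(CPM + 1) from the D0 control mean (blue for lower, red for higher), with genes in rows by role (label colours) and libraries in columns, the control arm left of the vertical line and the TMG arm right of it. Most replication and G2/M genes are below the D0 mean after D0, less so on D12 and in TMG replicate 2 of D30 than in the controls of D30.

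MCM5 (chromosome 22, 35796127 to 35821424, GRCh37), another subunit of the helicase, had 236 and 238 CPM in the D0 controls and 71.0 and 68.1 CPM in those of D12. It fell by 1.77 on the log2 scale (standard error 0.36, adjusted p = 0.00901 by edgeR's quasi-likelihood test). The libraries of the 2 stages did not overlap, which held for 11 of the 12 replication genes and all 16 G2/M genes. Of all genes, 33.2% were lower without overlap. CDT1 (chromosome 16, 88870197 to 88875666), whose E2F letters are shown above, went from 97.5 and 117 CPM to 29.0 and 27.2 CPM (log2 fold change -1.93, standard error 0.38, adjusted p = 0.00798 by edgeR). MCM3, MCM4, MCM6, MCM7, the sliding clamp PCNA and the ribonucleotide reductase subunit RRM2 also fell, by between 1.22 and 1.95 on the log2 scale. TYMS, the thymidylate synthase, stood out from its group with 76.4 and 73.3 CPM on D0 and 63.3 and 89.1 CPM on D12. Its libraries overlapped, and ENOSF1, which lies over TYMS in the genome, may share reads with it, since strand-specific counting is not stated.

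In the G1 and G1/S groups, CCNE1 and CCND2 fell. CCNE1 (chromosome 19, 30302898 to 30315219), cyclin E1, dropped from 23.5 and 25.6 CPM to 4.77 and 7.23 CPM (log2 fold change -2.03, standard error 0.36, adjusted p = 0.0054 by edgeR). CCND2 (chromosome 12, 4378937 to 4414519), cyclin D2, had 388 and 343 CPM on D0 and 176 and 111 CPM on D12 (log2 fold change -1.35, standard error 0.25, adjusted p = 0.00592 by edgeR). The other D cyclins did not follow. CCND1 (cyclin D1) had 182 and 294 CPM on D0 and 316 and 198 CPM on D12, CCND3 (cyclin D3) 14.3 and 13.5 CPM and then 9.63 and 13.2 CPM, and both pairs of libraries overlapped or nearly met. The kinase CDK6, partner of the D cyclins, had 47.8 and 97.2 CPM on D0 and 166 and 139 CPM on D12, without passing (adjusted p = 0.0603 by edgeR).

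Among G2/M genes, all 16 had a lower mean on D12, but only MYBL2, AURKA and BUB1 passed. MYBL2, which with the MuvB complex activates mitotic genes, had 124 and 149.6 CPM on D0 and 25.0 and 44.1 CPM on D12 (log2 fold change -1.98, standard error 0.58, adjusted p = 0.0415 by edgeR). AURKA (Aurora A, a kinase of the spindle poles) fell by 1.10 and BUB1 (a checkpoint kinase) by 1.47 on the log2 scale. MKI67 (chromosome 10, 129894923 to 129924687) had 626 and 495 CPM on D0 and 286 and 245 CPM on D12. It missed the threshold (log2 fold change -1.08, standard error 0.48, adjusted p = 0.149 by edgeR).

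CDKN1A (chromosome 6, 36644237 to 36655114) encodes p21, an inhibitor of several cyclin-dependent kinases, and was the inhibitor that rose. It had 48.1 and 40.6 CPM in the D0 controls and 152 and 116 CPM in those of D12 (log2 fold change 1.59, standard error 0.43, adjusted p = 0.03 by edgeR). CDKN1B (p27) had 25.1 and 40.6 CPM and then 40.7 and 32.7 CPM, with overlapping libraries. CDKN2A (p16 and p14ARF) had 2 and 3 counts in the D0 controls and 1 and 0 counts in those of D12, so it was barely detected at either stage.

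**Figure D2:**
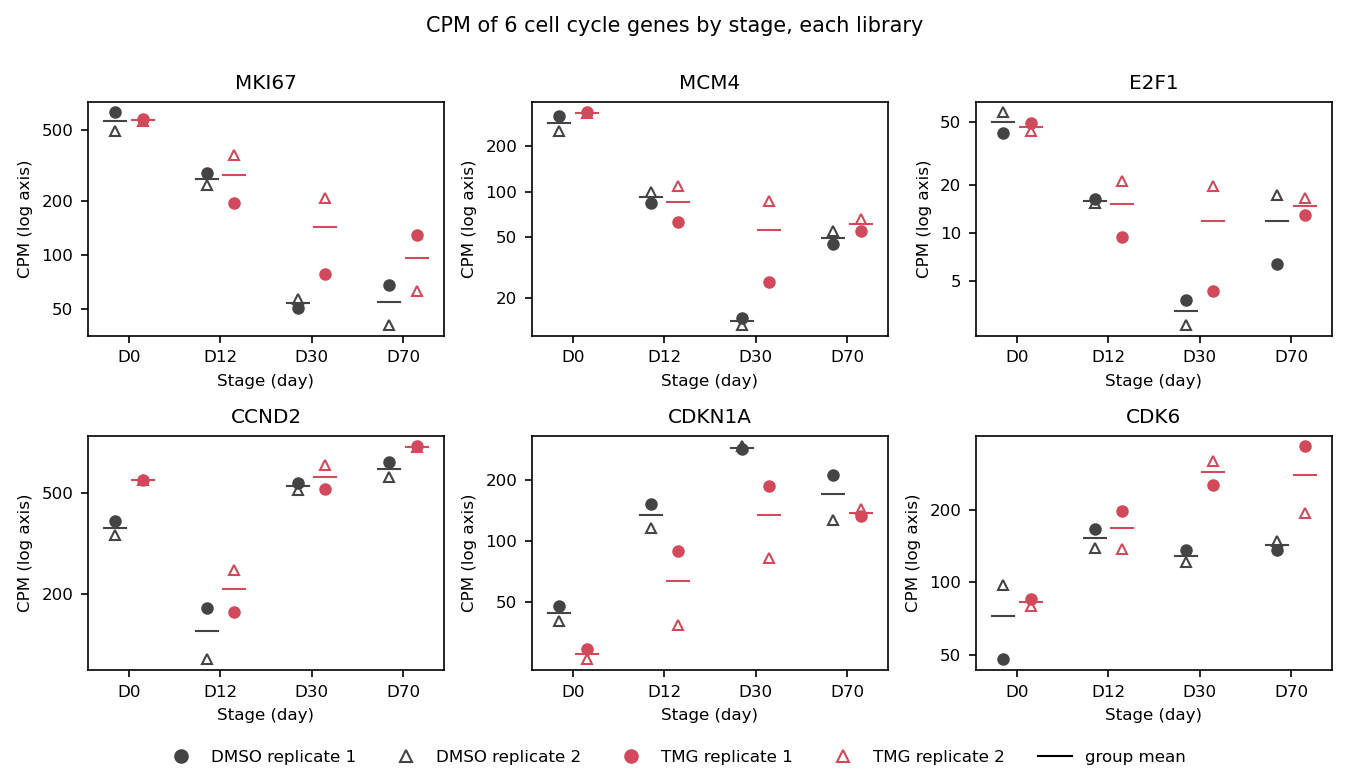
CPM on a log axis against stage for 6 of the 42 genes; each point is 1 library, dark grey for control and red for TMG, with filled circles for replicate 1, open triangles for replicate 2 and short horizontal lines for the group means. MKI67, MCM4 and E2F1 are low in the D30 controls, CCND2 dips on D12 and returns, and CDKN1A climbs to D30 in controls and stays lower in the TMG libraries up to D30.

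How many of these differences passed rested on single libraries and on the fit. In place of 14, edgeR called 4 without control replicate 1 of D0 (4.95% of all genes), 6 without replicate 2 (6.96%), and 1 each without replicate 1 or replicate 2 of D12 (3.96% and 4.83%). DESeq2 called 23 genes (22.3% of all genes) and edgeR on the 4 libraries of the comparison alone 32 (27.4%). Those of DESeq2 included 9 of 12 replication genes and 8 of 16 G2/M genes. Without the 3 libraries high in stromal markers edgeR called 33 (32.4%), of which 31 fell and 2 rose. Calls over all genes thus moved with those of the 42.

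From D12 to D30 in control cells, 12 of the 42 genes fell and 1 rose by edgeR's quasi-likelihood test. Of all genes tested, 1.69% fell and 1.91% rose. Among the 42, those that fell were 7 of 12 replication genes, 4 of 16 G2/M genes (MKI67, MYBL2, FOXM1 and AURKB) and CDC25A of the G1/S group. The gene that rose was CCND2. The median of the 42 genes was -1.51 against -0.039 for all genes, and all 12 replication and all 16 G2/M genes had a lower mean on D30, where 52.1% of all genes did.

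MCM4, a helicase subunit, went from 84.2 and 99.6 CPM on D12 to 14.8 and 13.1 CPM on D30 (log2 fold change -2.72, standard error 0.47, adjusted p = 0.0163 by edgeR). MCM5 fell by 2.27 and MCM2 by 2.22 on the log2 scale. MCM3, MCM7, CDT1 and TYMS fell by between 1.52 and 1.65. For each of these the control libraries of D30 were below those of D12. CDC45, another part of the active helicase, had 7.13 and 9.20 CPM on D12 and 0.376 and 1.46 CPM on D30, a log2 fold change of -3.07 (standard error 0.80) that did not pass (adjusted p = 0.0622 by edgeR).

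MKI67 stood at 50.2 and 56.6 CPM in the D30 controls, a fall of 2.31 on the log2 scale from D12 (standard error 0.50, adjusted p = 0.0332 by edgeR). MYBL2 was down to 3.76 and 6.02 CPM (log2 fold change -2.80, standard error 0.62, adjusted p = 0.0362 by edgeR). FOXM1, the activator of late cell cycle genes, fell by 2.09 and AURKB, the Aurora kinase of the chromosomal passenger complex, by 2.02 on the log2 scale. CDK1, the kinase that drives entry into mitosis, changed less, from 39.4 and 35.8 CPM to 32.0 and 24.9 CPM (log2 fold change -0.40, standard error 0.51).

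CDC25A, the phosphatase that activates cyclin-dependent kinases, had 27.1 and 27.4 CPM on D12 and 8.18 and 6.88 CPM on D30 (log2 fold change -1.86, standard error 0.37, adjusted p = 0.0255 by edgeR). The factors E2F1 and E2F2 had 16.3 and 15.5 CPM and 5.55 and 5.42 CPM on D12, and 3.85 and 2.66 CPM and 0.846 and 1.41 CPM on D30, but neither passed (adjusted p = 0.0863 and 0.0678 by edgeR). CCND2 went the other way, to 552 and 517 CPM on D30 (log2 fold change 1.90, standard error 0.25, adjusted p = 0.00713 by edgeR). CCND1, at 321 and 299 CPM on D30, and CCND3, at 12.8 in both libraries, overlapped their D12 values.

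The 3 inhibitors all had higher means on D30 and none passed by edgeR over 16 libraries. CDKN1A had 282 and 291 CPM (log2 fold change 1.10, standard error 0.42, adjusted p = 0.172 by edgeR), and CDKN1B 71.7 and 55.5 CPM (log2 fold change 0.79, standard error 0.25, adjusted p = 0.108 by edgeR). CDKN2A reached 9 and 52 counts from 1 and 0, and was near the threshold (adjusted p = 0.0512 by edgeR, 0.0498 with RLE size factors and 0.0424 with no filter). DESeq2 called CDKN1B and CDKN2A (adjusted p = 0.0343 and 0.00759). In the fit without the 3 libraries high in stromal markers, adjusted p-values were 0.04, 0.0406 and 0.0146 by edgeR for CDKN1A, CDKN1B and CDKN2A. The number of genes called went from 13 to 35 in that fit (16.5% of all genes), 33 on the 4 libraries alone (15.6%) and 26 by DESeq2 (10.1%). It was 1 without replicate 1 of D12 (0.031% of all genes) or without replicate 2 of D30 (0.775%), and 0 without replicate 2 of D12 or without replicate 1 of D30 (0% in both).

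Between D30 and D70 in control cells no gene of the 42 passed by edgeR, where 0.384% of all genes did. At an unadjusted p under 0.05, 7 of the 42 were higher and 0 lower. Of all genes tested, 10.8% were higher and 1838 of 24249 lower at that threshold. DESeq2 called 2 of the 42, where it called 7.01% of all genes. All 12 replication genes had a higher mean on D70 (54.4% of all genes), with a median log2 fold change of 0.61, and for 9 of them both D70 libraries were above both of D30 (24% of all genes). Of the 16 G2/M genes, 13 had a lower mean (45.4% of all genes), with a median of -0.41. The G2/M value rested on control replicate 2 of D70, which is high in stromal markers. Without it, 5 of the 16 were lower (51.2% of all genes) with a median of 0.06, while 10 of 12 replication genes were higher (47.6% of all genes) with a median of 0.41. Without replicate 1 instead, 15 of 16 G2/M genes were lower (50% of all genes) with a median of -1.06.

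The genes with the lowest p-values were MCM4 and E2F2, of replication and the G1/S passage. MCM4 had 44.9 and 54.7 CPM on D70 against 14.8 and 13.1 CPM on D30 (log2 fold change 1.84, standard error 0.46, adjusted p = 0.0944 by edgeR and 0.00482 by DESeq2). E2F2 had 4.37 and 7.24 CPM (log2 fold change 2.33, standard error 0.61, adjusted p = 0.0992 by edgeR and 0.00785 by DESeq2). These were the 2 genes DESeq2 called, and edgeR called the same 2 without the 3 libraries high in stromal markers (9.54% of all genes), with values of 1.69 and 1.89. MCM2, the next by p, had 14.6 and 17.5 CPM on D30 and 36.1 and 43.8 CPM on D70, a log2 fold change of 1.31 (standard error 0.45, adjusted p = 0.164 by edgeR). Of the D cyclins and inhibitors none passed, with values from -0.76 for CDKN1A (standard error 0.42) to 1.02 for CCND3 (standard error 0.45). E2F1 had 6.43 and 17.5 CPM on D70, and the 2 libraries differed widely. The median of all 42 genes was 0.16, but it was -0.08 without control replicate 1 of D70.

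The control libraries of D70 differed from each other by role. In replicate 2, which had the higher stromal sum, 15 of 16 G2/M genes were lower than in replicate 1 (48.2% of all genes), with a median difference of -1.17 on the log2 scale, while 10 of 12 replication genes were higher (51% of all genes), with a median of 0.28. The TMG arm split in the same way for G2/M, with all 16 genes lower in replicate 2 (51.1% of all genes, median -1.33), but not for replication, where 5 were higher and 7 lower (47.9% and 51.1% of all genes, median -0.06). The treatment tag also divides these libraries by replicate number. CDC20, which activates the anaphase-promoting complex, had 20.4 and 21.7 CPM in replicate 1 of the control and TMG arms and 3.70 and 4.90 CPM in replicate 2. CCNB1, cyclin B1, had 30.8 and 36.0 CPM in replicate 1 and 9.66 and 11.8 CPM in replicate 2. CCND1 was lower in replicate 2 as well (402 against 149 CPM in control and 281 against 122 CPM in TMG), whereas CCND3 was higher (18.5 against 33.5 CPM and 17.7 against 52.3 CPM).

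**Figure D3:**
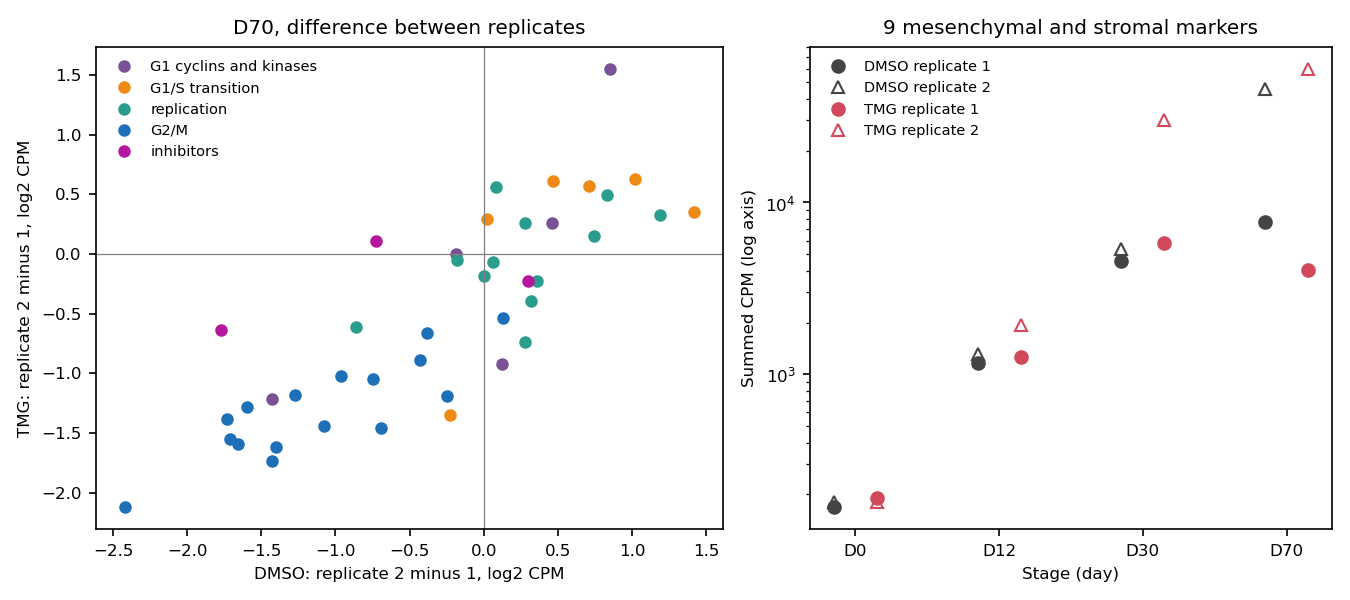
Left, difference in log2 CPM of replicate 2 from replicate 1 on D70, the control arm on the horizontal and the TMG arm on the vertical axis, with 1 point for each of the 42 genes coloured by role; right, summed CPM of the 9 mesenchymal and stromal markers in each library on a log axis, dark grey for control and red for TMG, filled circles for replicate 1 and open triangles for replicate 2. The G2/M genes lie below 0 in both arms except 1 gene in the control arm (medians -1.17 and -1.33), and the marker sums are highest in replicate 2 of both D70 arms and TMG replicate 2 of D30.

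Over the whole course, from D0 to D70 in control cells, 31 of the 42 genes fell and 3 rose by edgeR, where 14.7% of all genes tested fell and 15% rose. Those that fell were all 12 replication genes, all 16 G2/M genes, and CCNE1, CDC25A and E2F1. Those that rose were CDKN1A, CDKN2A and CCND2. AURKB fell most, by 3.85 on the log2 scale (standard error 0.49, adjusted p = 0.000429 by edgeR), from 84.0 and 90.7 CPM to 7.46 and 4.59 CPM. TYMS fell least of those that passed, by 1.11. MKI67 ended at 67.9 and 40.3 CPM (log2 fold change -3.37, standard error 0.52, adjusted p = 0.00117 by edgeR).

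CDKN1A stood at 211 and 127 CPM on D70 (log2 fold change 1.93, standard error 0.43, adjusted p = 0.00809 by edgeR). CDKN2A rose from 2 and 3 counts to 69 and 15 counts (log2 fold change 4.04, standard error 1.15, adjusted p = 0.0233 by edgeR), on few counts throughout. CCND2 rose by 0.77 (standard error 0.25, adjusted p = 0.0366 by edgeR) to 663 and 582 CPM, so its fall of D12 was followed by levels above those of D0. CDK4, CDK2, CCNE2, CCND1, CCND3, CDK6, E2F2 and CDKN1B did not pass. With 1 library of either stage left out, between 27 and 31 genes passed, where between 14.2% and 23.9% of all genes did, and without the 3 libraries high in stromal markers 35 did (37.8% of all genes).

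**Figure D4:**
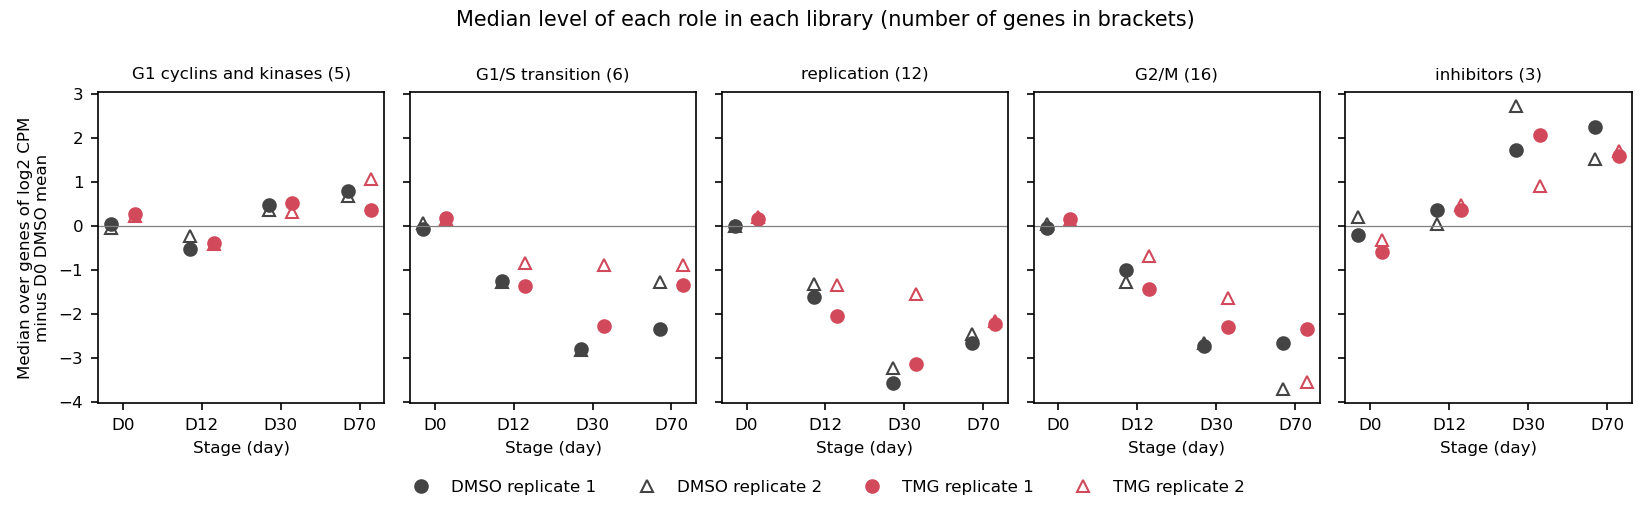
Median log2 level of the genes of each role relative to the D0 control mean, for each of the 16 libraries by stage; dark grey is control and red TMG, with filled circles for replicate 1 and open triangles for replicate 2. Replication genes reach -3.56 and -3.21 in the D30 controls and -1.54 in TMG replicate 2 of D30, and G2/M genes reach -3.70 and -3.53 in replicate 2 of both D70 arms.

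In the TMG arm, genes of the list also fell up to D12. By edgeR 15 of the 42 fell from D0 to D12 and 0 rose, where 9.19% and 7.24% of all genes did, and the median was -1.25. Whether this step differed between the arms was not tested. From D12 to D30 1 of the 42 rose, CCND2, and 0 fell, where 0.388% and 0.124% of all genes did. At an unadjusted p under 0.05, 9 were lower and 4 higher (7.15% and 7.86% of all genes), and DESeq2 called 2, CCND2 and CDKN2A, both higher (4.68% of all genes called). The median for that step was -0.63, against -1.51 in the control arm. From D0 to D70, 29 fell and 3 rose (CDK6, CDKN1A and CDKN2A), where 14.1% and 14.9% of all genes did, and without the 3 libraries high in stromal markers 31 fell and 3 rose (35.1% of all genes called). From D30 to D70 none passed by edgeR's test, where 0.00825% of all genes did. At an unadjusted p under 0.05, 1 was higher and 2 lower (6.45% and 4.51% of all genes), and DESeq2 called 0 of the 42 and 1.5% of all genes.

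These TMG arm counts also moved with single libraries. The 15 calls of the first step became 3, 5 and 0 without replicate 1 of D0, replicate 2 of D0 and replicate 1 of D12 (3.21%, 3.62% and 4% of all genes), and 13 without replicate 2 of D12 (6.36%). The call of CCND2 on D30 was lost without any one of 3 of the 4 libraries, and held without TMG replicate 1 of D30. Without the 3 libraries high in stromal markers, which takes TMG replicate 2 from D30, 12 genes passed from D12 to D30 (10 lower and 2 higher, where 5.12% of all genes passed) with a median of -1.11. From D30 to D70 the median was 0.403 without these 3 libraries, against -0.188 with all libraries. That fit leaves 1 library at each stage. The difference between the arms in the step from D12 to D30 is the same quantity as the TMG effect on D30 less that on D12. That quantity is tested further on.

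TMG against DMSO gave no gene that passed by edgeR's quasi-likelihood test at any of the 4 stages, neither among the 42 nor among the 24249 genes (0% at each). At an unadjusted p under 0.05 there were 1, 3 and 1 of the 42 on D0, D12 and D70, where 1.26%, 2.48% and 5.49% of all genes were, and 18 on D30. On D0, D12, D30 and D70 in that order, DESeq2 called 0, 0, 5 and 0, where it called 0.0206%, 0.0454%, 2.45% and 0.206% of all genes. The values are therefore descriptions of the 4 libraries of a stage. The median over the 42 genes was highest on D30 with all libraries, at 0.70 against 0.30 on D70, but not without the 3 libraries high in stromal markers, where it was 0.31 on D30 and 0.43 on D70.

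On D30, 40 of the 42 genes had a higher mean in TMG, where 50.8% of all genes did, and 17 were higher at an unadjusted p under 0.05, where 7.1% of all genes were, against 1 that was lower (4.89%). Both TMG libraries were above both controls for 29 genes and below both for 1, where 23.1% and 21% of all genes were. The median log2 difference was 0.70 against 0.01 for all genes. It was 1.07 for replication, 0.71 for G2/M, 0.70 for G1/S, 0.14 for G1 cyclins and kinases, and -0.31 for inhibitors. The TMG comparison and the control arm's steps from D12 to D30 and from D30 to D70 share the D30 control libraries. A low value in these thus enters each of them. Beside the high stromal sum of TMG replicate 2, both TMG libraries were above both controls for 5 of the 9 stromal markers and below for 0. Other marker lists also differed on D30. The 10 neuron markers summed to 579 and 695 CPM in the controls and to 843 and 1070 CPM in TMG, and both TMG libraries were above both controls for 7 of them and below for 1. The 7 pigment epithelium and choroid plexus markers summed to 191 and 307 CPM against 361 and 389 CPM, with 5 above. The 8 neural progenitor markers summed to 2562 and 2793 CPM against 2441 and 3520 CPM, with both TMG libraries below both controls for 4 and above for 1. The 8 stem cell markers summed to 68.3 and 42.7 CPM against 109 and 50.4 CPM, with 4 above and 0 below. None of these markers was at 0 in all 4 libraries. Their part in the result was not tested.

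MCM4, E2F2, RRM2, MYBL2 and MCM7 were the genes DESeq2 called, where 1.55% of all genes were called higher. MCM4 had 14.8 and 13.1 CPM in the D30 controls and 25.5 and 86.5 CPM in TMG (log2 fold change 2.01, standard error 0.46, adjusted p = 0.184 by edgeR and 0.00342 by DESeq2). E2F2 had 0.846 and 1.41 CPM against 3.01 and 10.9 CPM (log2 fold change 2.59, standard error 0.61, adjusted p = 0.193 by edgeR and 0.00524 by DESeq2). RRM2 had 8.36 and 7.63 CPM against 12.7 and 50.1 CPM (log2 fold change 1.97, standard error 0.54, adjusted p = 0.224 by edgeR and 0.0194 by DESeq2). In MCM4, E2F2 and RRM2, TMG replicate 2, the library high in stromal markers, was several times above TMG replicate 1. Replicate 1 of TMG was still above both controls for these genes.

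MYBL2 had 3.76 and 6.02 CPM in the controls and 7.58 and 32.9 CPM in TMG (adjusted p = 0.252 by edgeR and 0.0295 by DESeq2). MCM7 had 37.2 and 53.1 CPM against 65.2 and 109.9 CPM (adjusted p = 0.237 by edgeR and 0.047 by DESeq2), with a TMG replicate 1 nearer to replicate 2 than in the others. MKI67 had 50.2 and 56.6 CPM in the controls and 77.9 and 207 CPM in TMG (log2 fold change 1.42, standard error 0.49, adjusted p = 0.295 by edgeR). E2F1 had 3.85 and 2.66 CPM against 4.37 and 19.7 CPM, so that here TMG replicate 1 was close to the controls.

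CDK6 was the exception among the G1 genes. It had 136 and 121 CPM in the D30 controls and 254 and 318 CPM in TMG (log2 fold change 1.15, standard error 0.35, adjusted p = 0.258 by edgeR), and its value was 0.98 without TMG replicate 2 and 1.31 without replicate 1. On D70 it had 136 and 148 CPM against 366 and 194 CPM (log2 fold change 0.98, standard error 0.35, adjusted p = 0.884 by edgeR). On D0 and D12 its libraries overlapped between the arms. The D cyclins were nearly level on D30. CCND1 had 369 and 285 CPM in TMG against 321 and 299 CPM, CCND2 519 and 647 CPM against 552 and 517 CPM, and CCND3 10.8 and 17.3 CPM against 12.8 in both controls.

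**Figure D5:**
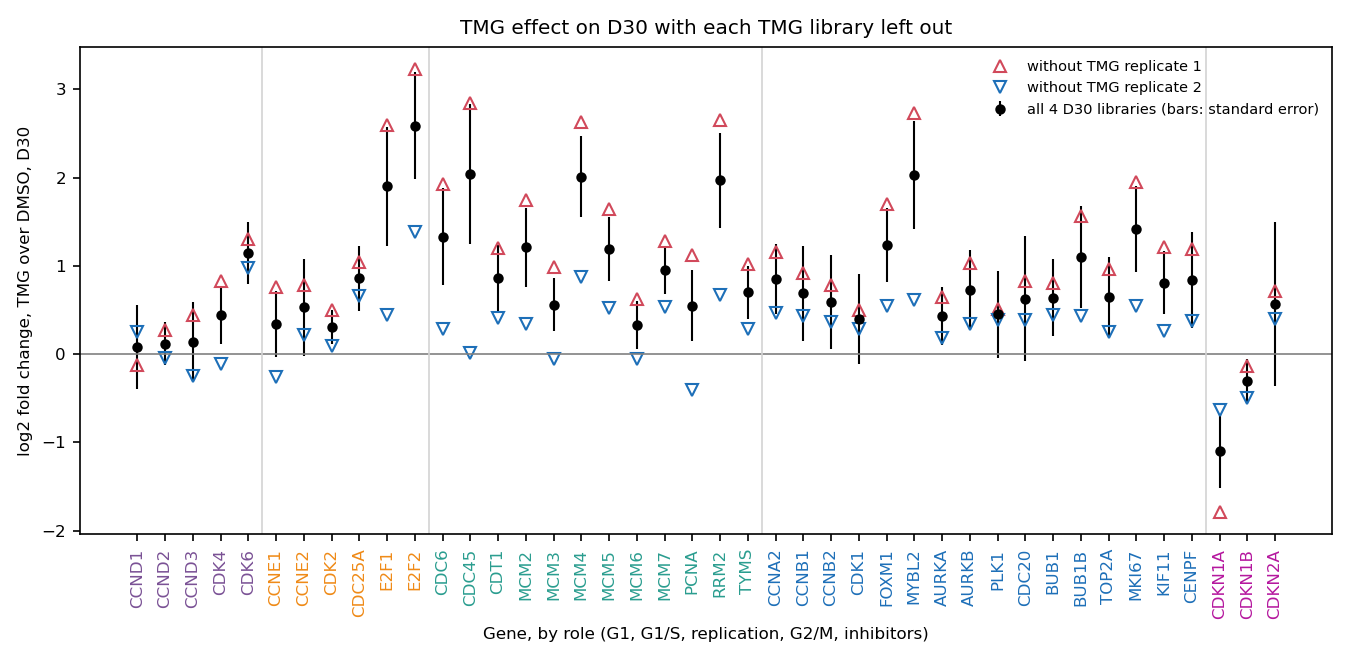
Log2 fold change of TMG over DMSO on D30 for each of the 42 genes by role, with all libraries (black points, with bars for the standard error), without TMG replicate 1 (red triangles pointing up) and without TMG replicate 2 (blue triangles pointing down). Most genes stay above 0 without replicate 2, at smaller values, and CDKN1A and CDKN1B lie below 0 in each.

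The size of the D30 difference rested on TMG replicate 2. Without it, 33 of the 42 genes had a higher mean in TMG, where 49.7% of all genes did, and the median was 0.35. By role it was 0.32 for replication, 0.39 for G2/M, 0.33 for G1/S, -0.04 for G1 and -0.50 for inhibitors, and all 16 G2/M genes were still higher. MCM4 then had 0.87, E2F2 1.38 and MKI67 0.54. With replicate 1 left out instead, 39 genes were higher (47.5% of all genes), the median was 1.02, and edgeR called 4 genes, MCM4, RRM2, E2F2 and MYBL2, where it called 0.673% of all genes. With a replicate term for each stage, an alternative chosen after seeing the data, edgeR called 1 of the 42, MCM7 (adjusted p = 0.0463), and 233 of all genes (0.961%).

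CDKN1A was the 1 member lower at an unadjusted p under 0.05 on D30. It had 282 and 291 CPM in the controls and 185 and 82.8 CPM in TMG, a difference of -1.10 on the log2 scale (standard error 0.42, adjusted p = 0.348 by edgeR and 0.156 by DESeq2). On D0 it had 48.1 and 40.6 CPM against 29.4 and 26.2 CPM (log2 fold change -0.67, standard error 0.42), and on D12 152 and 116 CPM against 89.0 and 38.6 CPM (log2 fold change -1.07, standard error 0.42, adjusted p = 1.0 by edgeR). At these 3 stages both TMG libraries were below both controls. With 1 library left out, the difference ranged from -0.79 to -0.52 on D0, -1.8 to -0.59 on D12 and -1.79 to -0.63 on D30. It was -0.63 on D30 without TMG replicate 2. On D70, with 132 and 143 CPM against 211 and 127 CPM, the libraries overlapped. CDKN1B overlapped between the arms at D0 and D30 and D70, with 44.9 and 57.8 CPM in TMG against 71.7 and 55.5 CPM on D30. CDKN2A had 24 and 31 counts in TMG and 9 and 52 counts in the D30 controls.

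On D0, 36 of the 42 genes had a higher mean in TMG, where 48.7% of all genes did, and both TMG libraries were above both controls for 26 and below both for 2, where 19.7% and 16.9% of all genes were, but the differences were small. The median was 0.15, and 1 gene had an unadjusted p under 0.05. This was CCND2, at 388 and 343 CPM in the controls and 567 and 563 CPM in TMG (log2 fold change 0.63, standard error 0.24, adjusted p = 1.0 by edgeR). CDK2, the kinase of cyclin E, had 34.9 and 39.2 CPM against 45.6 and 42.5 CPM (log2 fold change 0.25, standard error 0.19). Of the other D cyclins, CCND1 had 281 and 282 CPM in TMG, between its controls, and CCND3 15.0 and 15.5 CPM, just above its own. CDKN1B had 35.2 and 32.5 CPM in TMG, also between its controls, and CDKN2A 0 and 2 counts against 2 and 3. MKI67 had 626 and 495 CPM against 575 and 562 CPM, and MCM4 316 and 252 CPM against 335 and 329 CPM.

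On D12, 27 of the 42 had a higher mean (50.3% of all genes), and both TMG libraries stood above both controls for 3 genes and below for 1, where 17.8% and 16.5% of all genes did. CCND2 (176 and 111 CPM against 169.9 and 249 CPM in TMG) and CCNE1 (4.77 and 7.23 CPM against 10.8 and 10.1 CPM) were higher at an unadjusted p under 0.05, with an adjusted p of 1.0 each by edgeR. CCND1 had 228 and 173 CPM in TMG and CCND3 10.6 and 10.5 CPM, both overlapping the controls. CDKN1B had 40.9 and 44.5 CPM in TMG against 40.7 and 32.7 CPM (log2 fold change 0.22, standard error 0.25), and CDKN2A 0 and 6 counts against 1 and 0. The TMG libraries of D12 differed from each other across the list. Replicate 2 was above replicate 1 for 37 of the 42 genes (47.4% of all genes), by a median of 0.70 on the log2 scale, and for all 12 replication and 16 G2/M genes. MKI67, for example, had 195 and 363 CPM in TMG and 286 and 245 CPM in the controls. The median TMG difference of D12, 0.055 with all libraries, was therefore -0.35 without TMG replicate 2 and 0.33 without replicate 1. Marker sums also differed between these TMG libraries. The 9 stromal markers summed to 1258 and 1931 CPM in replicates 1 and 2 (1157 and 1317 CPM in the controls). The 7 pigment epithelium and choroid plexus markers summed to 220 and 424 CPM (220 and 305 CPM). The 8 progenitor markers went the other way, with 1755 and 1532 CPM (1861 and 1755 CPM). Their part in the result was not tested.

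On D70, 35 of the 42 had a higher mean in TMG (48.7% of all genes), with a median of 0.30, and 12 had both TMG libraries above both controls and 0 below, where 9.77% and 12.4% of all genes did. The median was 0.09 without TMG replicate 1, where 22 of the 42 were higher (44.9% of all genes), and 0.49 without TMG replicate 2. Without the 3 libraries high in stromal markers, which leaves 1 library in each arm of D70, 37 were higher (46.9% of all genes) with a median of 0.43. With all libraries, CDK6 was the 1 gene with an unadjusted p under 0.05 by edgeR. The next by p were CDK2, with 27.7 and 28.0 CPM in the controls and 33.2 and 40.5 CPM in TMG (log2 fold change 0.40, standard error 0.19, adjusted p = 0.902 by edgeR), and FOXM1, with 12.5 and 9.58 CPM against 22.4 and 14.2 CPM (log2 fold change 0.72, standard error 0.42, adjusted p = 0.909 by edgeR). CCND2 had 767 and 765 CPM in TMG, above its controls of 663 and 582 CPM (log2 fold change 0.30, standard error 0.24). For CCND1, CCND3, CDKN1B (45.5 and 56.3 CPM against 50.01 and 42.5 CPM) and CDKN2A (69 and 15 counts against 83 and 45) the libraries overlapped between the arms. MKI67 had 67.9 and 40.3 CPM in the controls and 129 and 62.3 CPM in TMG, so that replicate 2 of TMG lay between the controls. MCM4, with 44.9 and 54.7 CPM against 55.4 and 66.5 CPM, differed little (log2 fold change 0.29, standard error 0.44).

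Whether the TMG difference on D30 was larger than at another stage was tested directly. Of the 42 genes, 0 passed against D0, D12 or D70 by edgeR, where 0% of all genes passed, and 0 by DESeq2, which called 0.099%, 0.0701% and 0.099% of all genes. At an unadjusted p under 0.05, 5, 7 and 1 were higher, where 3.08%, 1.83% and 2.42% of all genes were. MCM4 was among them in each, with differences of 1.78 (standard error 0.63), 2.10 (0.63) and 1.72 (0.63) on the log2 scale. For CDKN1A the difference of D30 was -0.42 from D0, -0.03 from D12 and -0.80 from D70 (standard error 0.59 for the last).

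Other genes of the pathway were counted from lists written from general knowledge. Of 60 further genes of replication and mitosis, 59 were found. In control cells, 20 of these fell and 0 rose to D12 (9.71% and 6.97% of all genes), led by E2F8 (-2.65), HMMR (-2.23) and PKMYT1 (-2.21). To D30 19 fell and 0 rose (1.69% and 1.91% of all genes), led by ORC1 (-3.12), GINS4 (-3.08) and TK1 (-2.97). Between D30 and D70 0 passed, while 8 were higher and 6 lower at an unadjusted p under 0.05 by edgeR (10.8% and 7.58% of all genes) and DESeq2 called 3 (7.01% of all genes), counts near those of all genes. From D0 to D70 53 fell and 0 rose (14.7% and 15% of all genes), led by CENPE (-4.20), a kinesin of the kinetochore. On D30, 0 passed for TMG by edgeR and 7 by DESeq2 (2.45% of all genes), with 54 of 59 higher in mean (50.8%), 17 higher at an unadjusted p under 0.05 (7.1%) and a median of 0.60. Without TMG replicate 2 of D30, 47 of the 59 were higher in mean (49.7% of all genes), and the median was 0.27, with 4 higher by edgeR at an unadjusted p under 0.05 (2.15%).

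Of 8 further inhibitors and pocket proteins, 2 rose to D12 in control cells, where 6.97% of all genes did. These were CDKN2C, p18, with a log2 fold change of 2.48 (standard error 0.62, adjusted p = 0.0227 by edgeR) and RB1, the retinoblastoma protein, with 0.79 (standard error 0.18, adjusted p = 0.0154 by edgeR). From D0 to D70 5 rose, the largest being CDKN2C (4.50), CDKN2B (4.30) and CDKN2D (1.79), and 1, CDKN3, fell by 2.07 (15% of all genes rose and 14.7% fell). The values from D0 rest on low levels for CDKN2C, with 0.185 and 0.140 CPM in the D0 controls. CDKN2B had 0.309 and 3.57 CPM there, so its replicates differed widely. TMG gave 0 by edgeR and 0 by DESeq2 at each stage among these 8, with 0 at an unadjusted p under 0.05, and their median on D30 was 0.28 with all libraries and 0.05 without TMG replicate 2.

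Since CDKN1A is a target of p53, 14 other p53 targets were counted. None passed for TMG at any stage by edgeR. Means were lower in TMG for 12, 12, 11 and 8 of the 14 on D0, D12, D30 and D70. Of all 24249 genes, 12202, 11932, 11855 and 12359 were lower in mean. Both TMG libraries were below both controls for 8, 11, 5 and 2 of the 14, where 16.9%, 16.5%, 21% and 12.4% of all genes were. Both TMG libraries were above both controls for 0, 0, 2 and 1 (19.7%, 17.8%, 23.1% and 9.77% of all genes). These were TP53I3 on D30 (0.96, standard error 0.51) and D70 (0.45, 0.49) and GADD45A on D30 (0.10, 0.40). Without TMG replicate 2, 11 of the 14 were lower in mean on D30, where 12775 of 26038 genes were. At an unadjusted p under 0.05 by edgeR, 0, 4, 3 and 0 were lower and 0 higher at each stage. Of all genes, 0.936% were lower on D12 and 4.89% on D30, and 217 and 699 of 24249 on D0 and D70. Higher were 89, 374, 1722 and 633 of all genes by stage. On D12 these were FDXR (-1.09, standard error 0.32), BBC3 (-0.77, 0.29), AEN (-0.67, 0.24) and BAX (-0.56, 0.18), and on D30 RRM2B (-1.21, 0.49), BBC3 (-0.83, 0.29) and XPC (-0.57, 0.17). DESeq2 called 1 of the 14 on D30 (2.45% of all genes) and 0 at the other stages. In control cells, 1 of the 14, ZMAT3 (1.68), rose to D12 and 0 fell, where 6.97% and 9.71% of all genes did. To D30, MDM2 rose (0.80) while BAX (-0.99) and AEN (-1.03) fell, where 1.91% and 1.69% of all genes did. Between D30 and D70, 0 of the 14 passed by edgeR (0.384% of all genes). In that step 7 were lower and 1 higher at an unadjusted p under 0.05 by edgeR (7.58% and 10.8% of all genes). DESeq2 called 5 there (7.01% of all genes). From D0 to D70 1 rose and 5 fell, where 15% and 14.7% of all genes did.

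The genes whose 8 group means were most like those of MKI67 over all genes tested were KIF18B (Pearson r = 0.998), FOXM1 (0.997), NUSAP1 (0.997), CENPO (0.996) and KIF15 (0.996). Most like CDKN1A among named genes were TTC13 (0.983), MAFK (0.977) and ZNF248 (0.976). CCND2 was most like EEF1A1P6 (0.993), PPP3R1 (0.991), EEF1A1P9 (0.983), EEF1A1 (0.98) and POU6F1 (0.975), of which the EEF1A1 copies may share reads. For CCND1 the values were lower, between 0.911 and 0.956. These are descriptions over 8 points that share libraries.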

How the data were processed

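RNA of 16 libraries was sequenced after depletion of ribosomal RNA. Per the submitters' notes and the study's methods, the authors used bowtie2 for alignment to hg19. RSEM v1.2.12 then estimated gene counts on the Ensembl annotation of GRCh37, and the deposited values are these estimated counts, whole and not normalized. Whether counting used the strand is not stated. Libraries were grouped by their titles, which the descriptions and column names match for all 16 libraries and a separate treatment tag contradicts for 8 (control for every replicate 1, TMG for every replicate 2). The 2 libraries of a group are biological replicates per the study's methods. In the fit over 16 libraries, p-values rest on the spread between such libraries. It was estimated for each gene over all groups together and not for each stage.

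Genes were kept by edgeR 4.0.16 (filterByExpr, minimum count 10 and total 15; 24249 genes). One mean per group was fitted over 16 libraries with TMM normalization (8 residual degrees of freedom), tested by the quasi-likelihood F-test, and p-values were adjusted by Benjamini-Hochberg over all genes tested at a false discovery rate of 5%. Log2 levels of single libraries used a prior count of 2. The members and lists were chosen with earlier results of these data known. The rule for genes given by library took those that passed for TMG or between consecutive stages in controls, else the 3 with the lowest p, and always the inhibitors and D cyclins. Where many passed, some are given by range, and other members, such as MKI67 and MCM4 in TMG comparisons where nothing passed, were added after their values were seen. Of further cell cycle, inhibitor and p53 target lists, up to 3 called genes in each direction were named. Markers came from 8 stem cell, 8 progenitor, 10 neuron, 9 stromal and 7 pigment genes. Stem cell markers summed to between 4056 and 4751 CPM on D0 and 9.58 to 19.5 CPM on D70, progenitor markers to between 633 and 909 and between 1802 and 4741 CPM, and neuron markers to between 311 and 346 and between 245 and 1304 CPM. Alternatives were DESeq2 1.42.0, RLE size factors, no filter, a replicate block, the 4 libraries of a comparison alone, each library left out, and, after seeing the data, a block within each stage, the 3 libraries high in stromal markers left out, and the TMG effect on D30 against that on D12. The fit was also run on counts simulated with the same spread for a gene in all libraries. The spread of these data differs between stages, so that run cannot show how the fit behaves with such a difference. R 4.3.3, Python 3.11.15, pandas 2.3.3, numpy 2.4.6 and matplotlib 3.10.9 were used. Reads of TYMS, CDK2, CDK4, CCNE2, CCNA2, FOXM1, MCM7, CCND1 and CDKN1B may be shared with genes that overlap them.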

Additional observations from a re-analysis of the deposited data

How the results depend on the processing

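The coefficient of variation between replicates was 0.189, 0.238, 0.295 and 0.616 from D0 to D70. Depth limits CDKN2A, which alone among the 42 genes had libraries with 0 counts, and was not tested for the others. With the 3 libraries high in stromal markers left out, DESeq2, or the 4 libraries of a comparison alone, counts of genes called in stage comparisons were 33, 23 and 32 for D12 against D0 in controls (14 in the fit reported), 35, 26 and 33 for D30 against D12 (13), 34, 24 and 32 for D12 against D0 in TMG (15), and 12, 2 and 0 for D30 against D12 in TMG (1). For D70 against D30 in controls (0) the first and DESeq2 gave 2 each. For TMG on D30 (0), DESeq2 gave 5 and a block within each stage 1. Calls over all genes moved too, from 16.7% to 32.4%, 22.3% and 27.4% for D12 against D0 in controls. The cause was not tested. Without the 3 libraries, the median log2 fold change of the 42 genes was 0.315 for TMG on D30, -2.409 and -2.087 for D70 against D0 in controls and TMG, and 0.403 for D70 against D30 in TMG (-0.188 in the fit reported), and the sign changed for CCND2 (-0.08) and CCND3 (-0.28) for TMG on D30, CDKN1B (0.14) and CCND3 (-0.06) for TMG on D70, and CCND1 (0.37) from D30 to D70 in controls. Of other results for single genes, 463 kept direction and side of the threshold, 17 passed newly and 6 were lost.

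Differences between replicates correlated between arms, across genes, at 0.045, 0.367, 0.223 and 0.607 from D0 to D70. Same-numbered libraries thus deviated together on D70 and less so on D12 and D30, but since this did not hold on D0 and the labels name no shared culture, the numbers were not taken to pair libraries. With the number as a replicate block, edgeR called 0, 0, 0 and 0 genes for TMG, 16, 17, 0 and 35 for the stages in controls (consecutive, then D70 against D0) and 18, 1, 0 and 34 in TMG, none over 1.5 times from the fit reported.

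With 1 library left out, where a lone sample is assumed to vary like the other groups, counts ranged from 0 to 4 for TMG on D30, from 1 to 6, 0 to 1, 0 to 0 and 27 to 31 for the stages in controls, and from 0 to 13, 0 to 1, 0 to 4 and 29 to 33 in TMG. Medians ranged from 0.157 to 0.190, -0.353 to 0.331, 0.352 to 1.023 and 0.093 to 0.495 for TMG by stage, from -1.235 to -1.084, -1.549 to -1.265, -0.077 to 0.218 and -2.666 to -2.434 in controls, and from -1.644 to -0.903, -1.100 to -0.189, -0.528 to 0.230 and -2.543 to -2.108 in TMG. Signs changed for TMG on D0 in CDKN1B (-0.24 to 0.44) and CCND1 (-0.04 to 0.64), on D12 in CDKN2A (-2.03 to 4.46), CCND1 (-0.65 to 0.01) and CCND3 (-0.33 to 0.13), on D30 in CCND1 (-0.12 to 0.25), CCND2 (-0.04 to 0.27) and CCND3 (-0.25 to 0.44), and on D70 in CDKN1A (-0.61 to 0.11), CDKN1B (-0.28 to 0.03), CCND1 (-1.19 to 0.44) and CCND3 (-0.55 to 1.00). In controls they changed to D12 for CDKN1B (-0.12 to 0.55) and CCND1 (-0.24 to 0.50), to D30 for CCND1 (-0.02 to 0.67) and CCND3 (-0.03 to 0.41), and to D70 from D30 for CDKN2A (-0.56 to 1.74) and CCND1 (-1.06 to 0.34).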
